A study of Mus musculus with 8 samples.

Results

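The genes described here encode the sensors of the unfolded protein response (UPR), the transcription factors they switch on, and the feedback genes downstream of them. They are the 10 genes Ern1, Eif2ak3, Atf6, Atf6b, Xbp1, Atf4, Ddit3, Ppp1r15a, Chac1 and Trib3, taken by symbol from the 23284 genes in the count tables. Chaperones and folding enzymes are not among them. RNA was sequenced from Tomato-positive pancreatic endocrine cells collected by flow cytometry from mouse embryos at embryonic day 17. All 8 libraries carry the transgene Neurog3Cre+, which is active in endocrine precursors, and the lineage reporter RosaTomato+, on the strain written C56BL/J in the labels. The 4 KO libraries (replicates 8, 9, 17 and 24) are Neurod1floxed/floxed, and the 4 Het libraries (replicates 6, 7, 13 and 19) are Neurod1floxed/wt, so that Cre also removes 1 copy of Neurod1 in the Het cells and no group has both copies intact. The labels do not say whether a library is 1 embryo or a pool, so p-values measure only the spread between these libraries.

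The UPR is the reaction of a cell to misfolded protein in the endoplasmic reticulum. IRE1, encoded by Ern1, removes a short intron from the Xbp1 transcript, PERK, encoded by Eif2ak3, slows translation and thereby raises ATF4, and ATF6 moves to the Golgi, where it is cut to release a transcription factor. Much of this control acts on splicing, phosphorylation, translation and protein cleavage, none of which a gene-level read count records. Hormone-producing endocrine cells put large amounts of protein through the reticulum, and beta cells are known to depend on PERK.

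The Xbp1 transcript is shown first, because its 2 forms cannot be told apart in these counts. In the transcript Xbp1-201 (GENCODE M21, GRCm38), bases 818 to 843, in capitals, are the 26 bases that IRE1 removes, found here between the cuts in 2 copies of the motif CNGCAGC. They lie within the longest reading frame.
Xbp1: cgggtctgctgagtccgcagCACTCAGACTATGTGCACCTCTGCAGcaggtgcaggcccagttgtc
Promoters (250 bases before to 50 after the start site, RefSeq, GRCm38.p6) were available for 9 of the 10 genes, all but Atf6. Of the stress-response elements searched on both strands, 3 of these promoters hold a match, shown here in capitals with the free base in lower case. The C/EBP-ATF element TGATGNAA, bound by ATF4 with C/EBP partners, occurs in 2 members, and the cyclic AMP response element TGACGTCA in 1.
Chac1 (chr2:119351033-119351072, + strand): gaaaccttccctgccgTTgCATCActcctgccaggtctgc
Trib3 (chr2:152344028-152344057, - strand): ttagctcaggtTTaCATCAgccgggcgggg
Ppp1r15a (chr7:45526269-45526296, - strand): gaccccgcctctccggTGACGTCAgcac
Of all 32851 promoters in the table, 3.97% hold the C/EBP-ATF element and 1.79% the cyclic AMP response element. These matches are letters in a window and do not show that a factor binds there.

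The libraries held between 10.35 M and 16.1 M counts. Neurod1 stood at 2.55 to 22.2 CPM (read counts scaled to each library's size, which was adjusted by the TMM method) in KO and at 133 to 210 CPM in Het. The sorted cells carried endocrine markers in every library, with Chga between 576 and 1581 CPM. KO replicate 8 stood apart: all 11 mesenchyme markers were highest there and summed to 9867 CPM against 268 to 1248 CPM in the other 7 libraries, its 10 endocrine markers, Neurod1 included, summed to 3346 CPM against 5179.5 to 8545 CPM, and leukocyte markers reached 407 CPM there and 227 CPM in KO replicate 9 against at most 58.3 CPM elsewhere. The summed acinar markers ran from 10761 to 47963 CPM and were highest in KO replicate 9. Y-linked genes were read in KO replicates 8, 9 and 24 and Het replicate 7 (414 to 497 CPM summed) and were near 0 in the other 4 libraries, so sex was not balanced between the genotypes. Of the erythroid markers Hbb-b1, Hba-a1 and Hba-a2 were at 0 in all 8 libraries. In such bulk samples fewer cells of a type and less RNA per cell cannot be told apart.

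None of the 10 genes was called in KO against Het. Of the 9 that could be tested, 0 were lower and 0 were higher at an adjusted p under 0.05 (edgeR quasi-likelihood test, Benjamini-Hochberg adjustment over 14116 genes), and DESeq2 also called 0. Over all tested genes the test called 1.02%, with 0.680% lower and 0.340% higher, so that 0 calls among 9 genes is near the background. No member had an unadjusted p under 0.05 either, which 12.2% of all tested genes had. The KO and Het libraries overlapped for each of the 10 genes, while 8.03% of all tested genes had groups that do not overlap. The members' median log2 fold change (KO over Het) was −0.16, with 7 negative and 2 positive, beside a median of 0.03 over all tested genes. Summed over the 10 genes, the libraries held 794 to 818 CPM in KO and 825 to 934 CPM in Het. The sum rests mainly on Atf6, Xbp1 and Atf4. These ranges did not overlap on the TMM-scaled library sizes, but the gap was narrow. The TMM factors themselves lay further apart, from 0.954 in Het replicate 19 to 1.03 in KO replicate 17. On library sizes without these factors the ranges overlap, with Het replicate 19 below the KO libraries, so the separation depends on the scaling. No background share was computed for such sums. The tenth gene, Trib3, had too few counts to be tested.

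**Figure D1:**
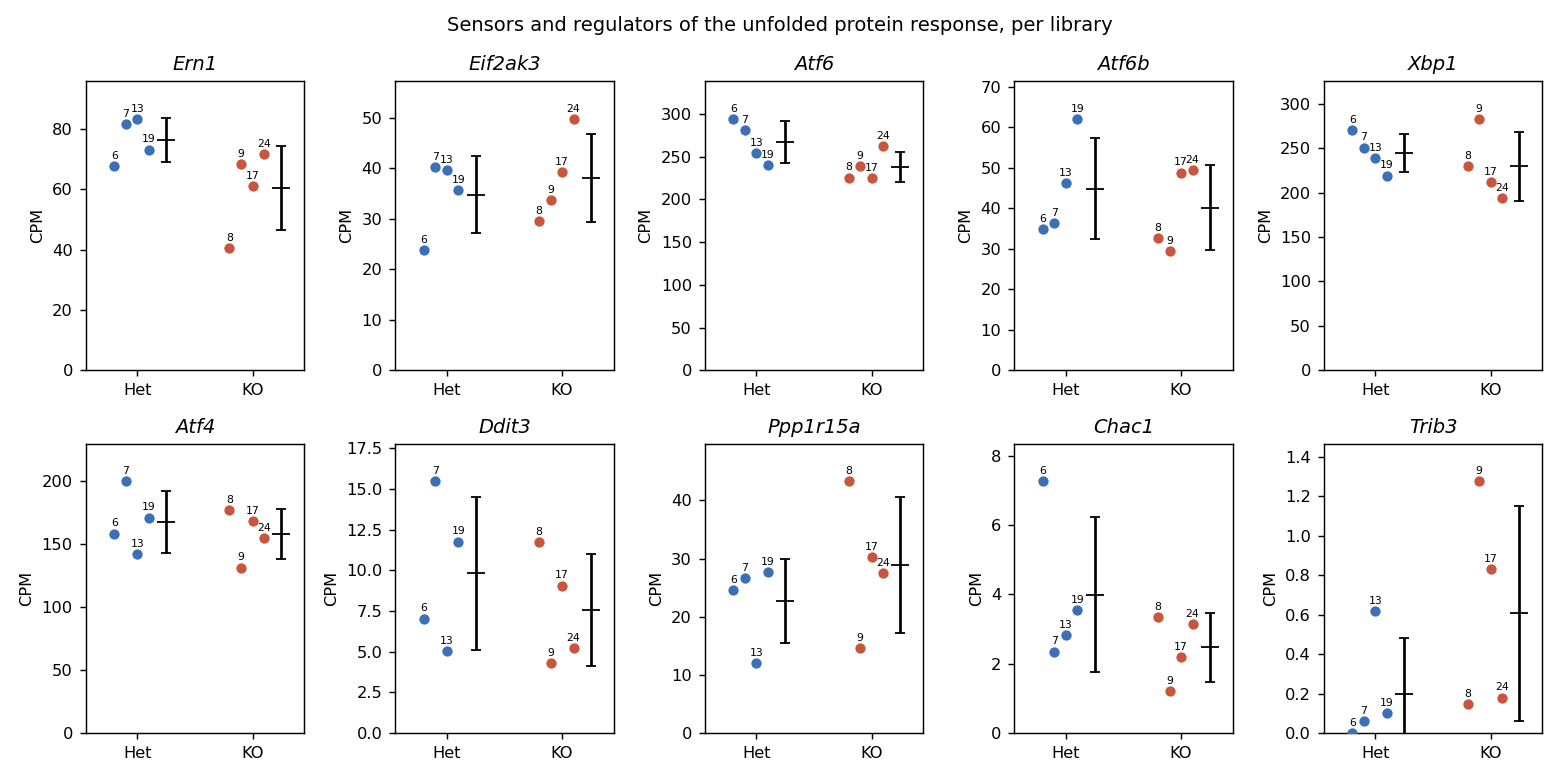
Each panel plots CPM (from 0) of 1 gene in the 4 Het (blue) and 4 KO (red) libraries, numbered by replicate, with the group mean and SD in black. The 2 groups overlap in all 10 panels, with Ern1 lowest in KO replicate 8, Ppp1r15a highest in KO replicate 8 and Chac1 highest in Het replicate 6.

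Compared per length of exon, the levels of the 10 genes spanned a wide range. Xbp1 (70.7 ± 11.9 CPM per kb in KO and 75.3 ± 6.57 in Het, SD, n = 4 each) and Atf4 (66.9 ± 8.41 and 71.0 ± 10.3 CPM per kb) were the most abundant and, on these lengths, did not differ from each other beyond their spread. The lengths take all annotated exons of a gene together, 3248 bases for Xbp1 and 2358 for Atf4. The transcript Xbp1-201 alone has 2129 bases, so the order of genes with close values depends on the length chosen. Atf6 followed at 25.8 ± 1.89 CPM per kb in KO and 29.0 ± 2.68 in Het, and Atf6b at 14.6 ± 3.82 and 16.3 ± 4.56. Ppp1r15a, Ern1, Eif2ak3 and Ddit3 lay close together, with library values between 2.51 and 14.7 CPM per kb that overlapped among all 4. Chac1 ranged from 0.731 to 4.44 CPM per kb and Trib3 from 0 to 0.601. For scale, Hspa5, the gene of the chaperone BiP that holds the sensors inactive, stood at 477 ± 63.7 CPM per kb in KO and 842 ± 89.3 in Het. Hspa5 falls outside the rule for named genes and was chosen after its values were seen.

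Among the sensors, Ern1 had the smallest p of the 9 genes. IRE1, its product, is both a kinase and the endonuclease that cuts Xbp1. In Het it was at 67.8, 81.6, 83.5 and 73.2 CPM in replicates 6, 7, 13 and 19, and in KO at 40.6, 68.4, 61.2 and 71.8 CPM in replicates 8, 9, 17 and 24. KO replicates 8 and 17 lay below every Het library, and KO replicates 9 and 24 lay inside the Het range. The means were 60.5 ± 14.0 CPM in KO and 76.5 ± 7.32 CPM in Het (SD, n = 4 each), a log2 fold change of −0.34 (SE 0.19, 95% interval −0.76 to 0.08, edgeR adjusted p = 0.501). Without KO replicate 8, the library rich in mesenchyme markers, it was −0.20 (adjusted p = 0.598). The 3 genes whose pattern over the 8 libraries was closest to that of Ern1 were Hirip3, Esrp1 and Tmed8, with root mean square differences of centred log2 CPM of 0.08, 0.09 and 0.09 beside a median of 0.43 over 9803 genes.

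Eif2ak3, the gene of the kinase PERK, was at 23.7, 40.2, 39.6 and 35.6 CPM in Het and at 29.6, 33.7, 39.1 and 49.8 CPM in KO, in the same order of replicates. The highest and the second lowest library were KO, and the groups overlapped over most of their range. Its means were 38.1 ± 8.74 CPM in KO and 34.8 ± 7.66 CPM in Het, with a log2 fold change of 0.13 (SE 0.23, 95% interval −0.38 to 0.64, edgeR adjusted p = 0.868). The sign turned without KO replicate 24 (−0.04) or without Het replicate 6 (−0.02).

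Atf6 and Atf6b encode 2 related membrane-bound factors, of which ATF6 is the stronger activator. Atf6 was the most even of the 10 genes, at 295, 282, 255 and 240.3 CPM in Het and 226, 239, 225 and 262 CPM in KO. The 3 lowest libraries were KO, and KO replicate 24 lay above 2 of the Het libraries. Its log2 fold change was −0.17 (SE 0.12, 95% interval −0.44 to 0.10, edgeR adjusted p = 0.613), from 268 ± 24.8 CPM in Het to 238 ± 17.4 CPM in KO (SD, n = 4 each). Atf6b had a log2 fold change of −0.16 (SE 0.25, edgeR adjusted p = 0.847), with libraries from 29.5 to 49.5 CPM in KO and from 34.8 to 62.2 CPM in Het, and it turned to 0.03 without Het replicate 19. The ratio of Atf6 to Atf6b counts ran from 4.61 to 8.09 in KO and from 3.87 to 8.46 in Het, so the KO range lay within the Het range.

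Xbp1, the factor made active by IRE1 splicing, was at 270.0, 251, 238 and 219 CPM in Het and at 230.2, 283, 212 and 193 CPM in KO. The highest and the lowest library were both KO, and the Het libraries lay between them. Its log2 fold change was −0.09 (SE 0.15, 95% interval −0.41 to 0.23, edgeR adjusted p = 0.852), and the interval covers 0.751-fold to 1.17-fold. KO replicate 9, where Xbp1 was highest, was also the library with the highest acinar sum. Over the 8 libraries Xbp1 was related to the mean log2 CPM of the tested acinar markers with r = 0.687. The exact permutation p was 0.0607 (adjusted p = 0.247 over 18 relations), and r was −0.04 without KO replicate 9 and Het replicate 6. Without KO replicate 9 the log2 fold change of Xbp1 was −0.21, and with the acinar markers as a covariate it was −0.13. Whether acinar RNA accounts for these values was not tested.

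Atf4, the factor at the end of the PERK branch, was at 158, 199, 142 and 171 CPM in Het and at 177, 131, 168 and 155 CPM in KO. The highest library was Het and the lowest KO, with the other 6 mixed between them. Its log2 fold change was −0.09 (SE 0.15, 95% interval −0.42 to 0.24, edgeR adjusted p = 0.861), and the interval covers 0.749-fold to 1.18-fold. Without Het replicate 7, the highest library, it was 0.01. ATF4 is regulated mainly when its transcript is translated, which these counts do not measure.

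Ddit3, which encodes the pro-apoptotic factor CHOP, varied more between libraries of 1 genotype than between the genotypes. It was at 7.03, 15.5, 5.03 and 11.8 CPM in Het and at 11.7, 4.31, 9.05 and 5.21 CPM in KO, a 3.59-fold range over the 8 libraries from 54 to 250 counts. Low and high libraries occurred in both groups. Its log2 fold change was −0.37 (SE 0.46, 95% interval −1.39 to 0.64, edgeR adjusted p = 0.793), and it ran from −0.68 without KO replicate 8 to −0.07 without Het replicate 7. A change of 1.5-fold in either direction lies within that interval and is not excluded here. The ratio of Ddit3 to Atf4 counts was 0.0328 to 0.0664 over the KO libraries (mean 0.0467, SD 0.0163) and 0.0355 to 0.0775 over the Het libraries (mean 0.0566, SD 0.0198). In the GENCODE annotation an exon of Ddit3 overlaps one of Mars on the opposite strand, and no strand-specific counting is stated, so reads of that stretch could belong to either gene.

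Among the feedback genes, Ppp1r15a encodes GADD34, the phosphatase subunit that ends the PERK signal by removing the phosphate from eIF2. It was at 24.6, 26.6, 12.01 and 27.7 CPM in Het and at 43.3, 14.6, 30.2 and 27.5 CPM in KO. KO replicate 8 stood highest and Het replicate 13 lowest, with KO replicate 9 next to it. The log2 fold change was 0.35 (SE 0.35, 95% interval −0.43 to 1.12, edgeR adjusted p = 0.736), and it was 0.08 without KO replicate 8 and 0.57 without KO replicate 9. Ppp1r15a shares an overlapping exon on the opposite strand with Tulp2 in the same annotation. For Ppp1r15b, its constitutive counterpart, edgeR gave −0.16 (adjusted p = 0.706).

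The order of the libraries in Ppp1r15a followed that of the immediate-early and heat-shock genes, which respond within minutes to handling and growth signals. The 15 listed genes, Fos, Jun and Egr1 among them and Ppp1r15a not, had a mean log2 CPM of 4.69 in Het replicate 13, 5.07 in KO replicate 9, 5.996 to 6.60 in 5 libraries and 7.12 in KO replicate 8. Over the 8 libraries Ppp1r15a was related to this mean with r = 0.988 (exact permutation p = 0.000248, two-sided, adjusted p = 0.00446 over 18 relations) and Spearman's rho = 0.881 (exact permutation p = 0.00724, adjusted p = 0.130). Without KO replicate 9 and Het replicate 13, the 2 libraries farthest from the median, r was 0.928. Each genotype has only 4 libraries, too few for a value within the group. None of the other 8 tested members passed the same correction: Atf4 had r = 0.735 (adjusted p = 0.217) and Ddit3 r = 0.657 (adjusted p = 0.247), and r was 0.147 and 0.126 without those 2 libraries. No member passed it for the acinar markers either. There Atf4 had r = −0.779 (exact permutation, adjusted p = 0.202) and Ddit3 r = −0.670 (adjusted p = 0.247). Without KO replicate 9 and Het replicate 6, the libraries left out for the acinar markers, r was −0.692 and −0.528. Both lists of relations, to the immediate-early and heat-shock genes and to the acinar markers, were tried after the values had been seen. None of the 15 genes was called between KO and Het by edgeR or DESeq2, although all 15 had a positive log2 fold change (median 0.58) and 11 of them were highest in KO replicate 8. Without KO replicate 8 the median was 0.17 and 13 of 15 were positive, and without Het replicate 13 the median was 0.37. At an unadjusted p under 0.05 there was 1, Zfp36 (1.20, SE 0.47, edgeR adjusted p = 0.338). It stood at 566 CPM in KO replicate 8 and at 55.6 to 213 CPM in the other 7 libraries, and without KO replicate 8 its log2 fold change was 0.53.

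**Figure D2:**
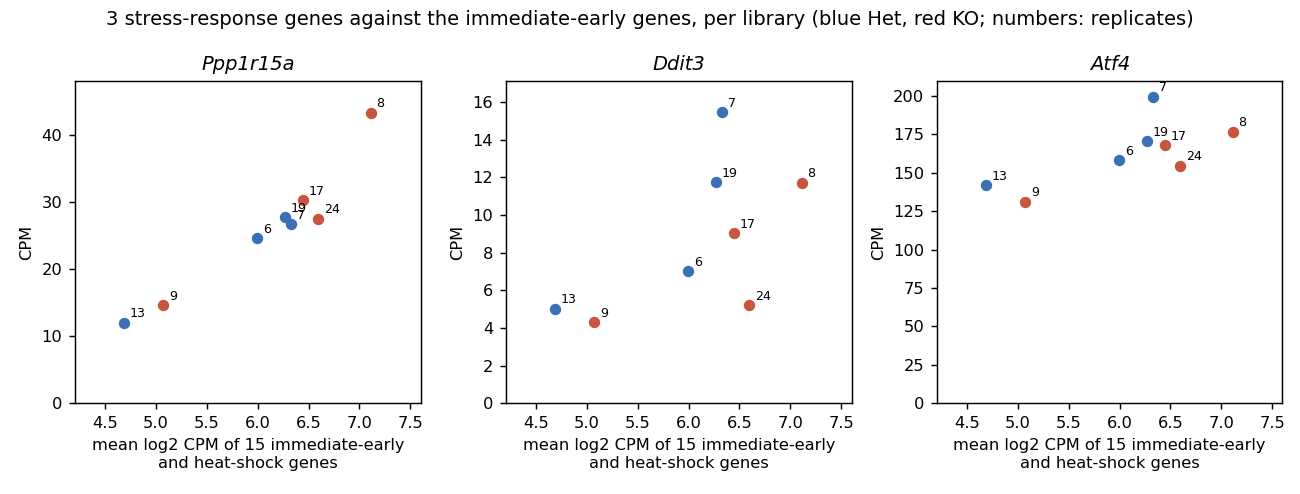
CPM of Ppp1r15a, Ddit3 and Atf4 (from 0) is plotted against the mean log2 CPM of 15 immediate-early and heat-shock genes in each of the 8 libraries, blue for Het and red for KO, with replicate numbers. Ppp1r15a is higher along the axis, from 12.01 CPM in Het replicate 13 to 43.3 CPM in KO replicate 8, while Ddit3 and Atf4 scatter more.

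Chac1 encodes an enzyme that degrades glutathione and is a target of ATF4 with CHOP. It was at 7.26, 2.35, 2.83 and 3.55 CPM in Het and at 3.35, 1.20, 2.19 and 3.14 CPM in KO, from 15 to 94 counts. Het replicate 6 was the highest library and KO replicate 9 the lowest, and the other 6 lay between 2.19 and 3.55 CPM. The log2 fold change of −0.69 (SE 0.55, 95% interval −1.92 to 0.53, edgeR adjusted p = 0.657) was −0.23 without Het replicate 6. Trib3, a pseudokinase that damps ATF4 and CHOP, had 0, 1, 7 and 1 counts in Het and 2, 16, 11 and 2 counts in KO. Of these libraries 5 held fewer than 3 counts, the number that a count of 0 still allows, and with no filter on low counts edgeR put it at 1.59 on the log2 scale (SE 1.37, adjusted p = 0.665). No direction can be read from values this low.

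The authors' deposited table, made with DESeq on the same libraries, gives an adjusted p of 1 for each of the 10 genes. In the authors' deposited table the fold change of the KO mean over the Het mean ran from 0.619 for Chac1 to 1.27 for Ppp1r15a, with 3.10 for the barely detected Trib3. Of the 18760 genes with an adjusted p there, 184 had one under 0.05, so that no call among 10 genes is near that background. Hspa5 was among the 184 (log2 fold change −0.82, DESeq adjusted p = 0.0011).

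Among other genes of the same signalling steps, edgeR called none with all 8 libraries and no covariate. Of 11 listed kinases, phosphatase subunits and initiation factors of the eIF2 branch, edgeR called 0 and DESeq2 called 0, with 1 gene at an unadjusted p under 0.05 and a median of −0.16 on the log2 scale. The smallest p was that of Eif2s1, which encodes the phosphorylated subunit of eIF2 (109 ± 21.6 CPM in KO and 148 ± 18.1 in Het, log2 fold change −0.44, edgeR adjusted p = 0.306). With the mesenchyme covariate Eif2s1 was called lower. Of 7 tested genes of ATF6 processing and of the related CREB3 family edgeR called 0 (1 at an unadjusted p under 0.05, median 0.02). The gene with the smallest p there was Wfs1, a reticulum membrane protein known to restrain ATF6, at 161 ± 50.2 CPM in KO and 266 ± 35.1 CPM in Het (log2 fold change −0.73, SE 0.22, edgeR adjusted p = 0.190). DESeq2 called Wfs1 lower. Every KO library lay below every Het library for Wfs1, while 8.03% of all tested genes had groups that do not overlap. Of 4 tested IRE1 partners 0 were called by edgeR or DESeq2 and 0 had an unadjusted p under 0.05, with the smallest p for the adaptor gene Traf2 (−0.36, edgeR adjusted p = 0.645). Rtcb, the ligase that joins the cut Xbp1 exons, is listed under its older symbol D10Wsu52e and had a log2 fold change of −0.04 (adjusted p = 0.967).

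Among the genes downstream of ATF4 and CHOP, edgeR called 1 of 24 tested targets higher and 0 lower, with 2 lower at an unadjusted p under 0.05 (median −0.15, or −0.03 without Het replicate 6). DESeq2 called 1 target lower, Gars, which encodes a tRNA synthetase, and limma-voom with quality weights and the mesenchyme covariate each called 2 lower, Gars and Vldlr. Without KO replicate 8, Vldlr was called lower. These 2 genes fall outside the rule for named genes. Over all tested genes 0.340% were called higher. The target called higher was Slc3a2, the heavy chain of amino-acid transporters, at 151 ± 5.24 CPM in KO and 97.5 ± 12.2 CPM in Het (SD, n = 4 each). Every KO library lay above every Het library, while 8.03% of all tested genes had groups that do not overlap. Slc3a2 rose by 0.64 on the log2 scale (SE 0.13, edgeR adjusted p = 0.0489). The call was lost without KO replicate 9, 17 or 24 or Het replicate 7, 13 or 19 (highest adjusted p 0.187). It was also lost under a covariate for acinar or for Y-linked genes and with no filter on low counts. Of 7 tested genes listed as partners of ATF4 and CHOP, 1 rose by edgeR's test, Nfe2l2, which encodes the oxidative stress factor NRF2. The median of this list was 0.45, but 0.28 without KO replicate 8, 0.71 without KO replicate 9, 0.78 without Het replicate 7 and 0.10 with the mesenchyme covariate, and 4 of its 7 tested genes were highest in KO replicate 8. It went from 71.5 ± 8.43 CPM in Het to 119 ± 6.18 CPM in KO (log2 fold change 0.74, SE 0.13, edgeR adjusted p = 0.0362), and the call was lost under the same 2 covariates and on leaving out any library but KO replicate 8 (highest adjusted p 0.136). Atf3, a factor induced by ATF4 and also an immediate-early gene, ranged from 6.62 CPM in Het replicate 13 to 114 CPM in KO replicate 8 (log2 fold change 0.45, edgeR adjusted p = 0.850). Asns, a classical ATF4 target for asparagine synthesis, had −0.26 (adjusted p = 0.807).

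Several targets of ATF6 and XBP1 fell in KO. Of 10 tested ATF6 targets 8 fell and 0 rose (median −0.96), and of 14 XBP1 targets 4 fell and 0 rose (median −0.54), where 0.680% of all tested genes were called lower. With all 8 libraries each of the 24 had a negative log2 fold change, and without KO replicate 8 1 XBP1 target turned positive. In the first list the genes with the smallest p were Manf, Creld2 and Sdf2l1, all encoding secreted or lumenal reticulum proteins, with log2 fold changes of −1.06, −1.48 and −1.39 (edgeR adjusted p = 0.00550, 0.00670 and 0.00974). In the second they were Dnajc3 (−0.82), Pdia6 (−0.83) and Dnajb9 (−1.21), 2 co-chaperones and a disulfide isomerase (edgeR adjusted p = 0.0114, 0.0121 and 0.0216). Earlier results of these data had already shown this fall of chaperone genes, so it is the setting for the regulators and no independent support. Of the 10 ATF6 targets 9 had their lowest level in KO replicate 8, and without it 8 ATF6 and 6 XBP1 targets were called lower. With any other single library left out, 3 to 6 ATF6 targets and 0 to 4 XBP1 targets were called, and with a covariate for Y-linked genes 3 and 0. The medians moved less: in those fits that left out 1 other library they lay between −1.03 and −0.93 for ATF6 targets and between −0.60 and −0.49 for XBP1 targets, with the Y-linked covariate they were −0.90 and −0.57, and without KO replicate 8 they were −0.86 and −0.57.

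**Figure D3:**
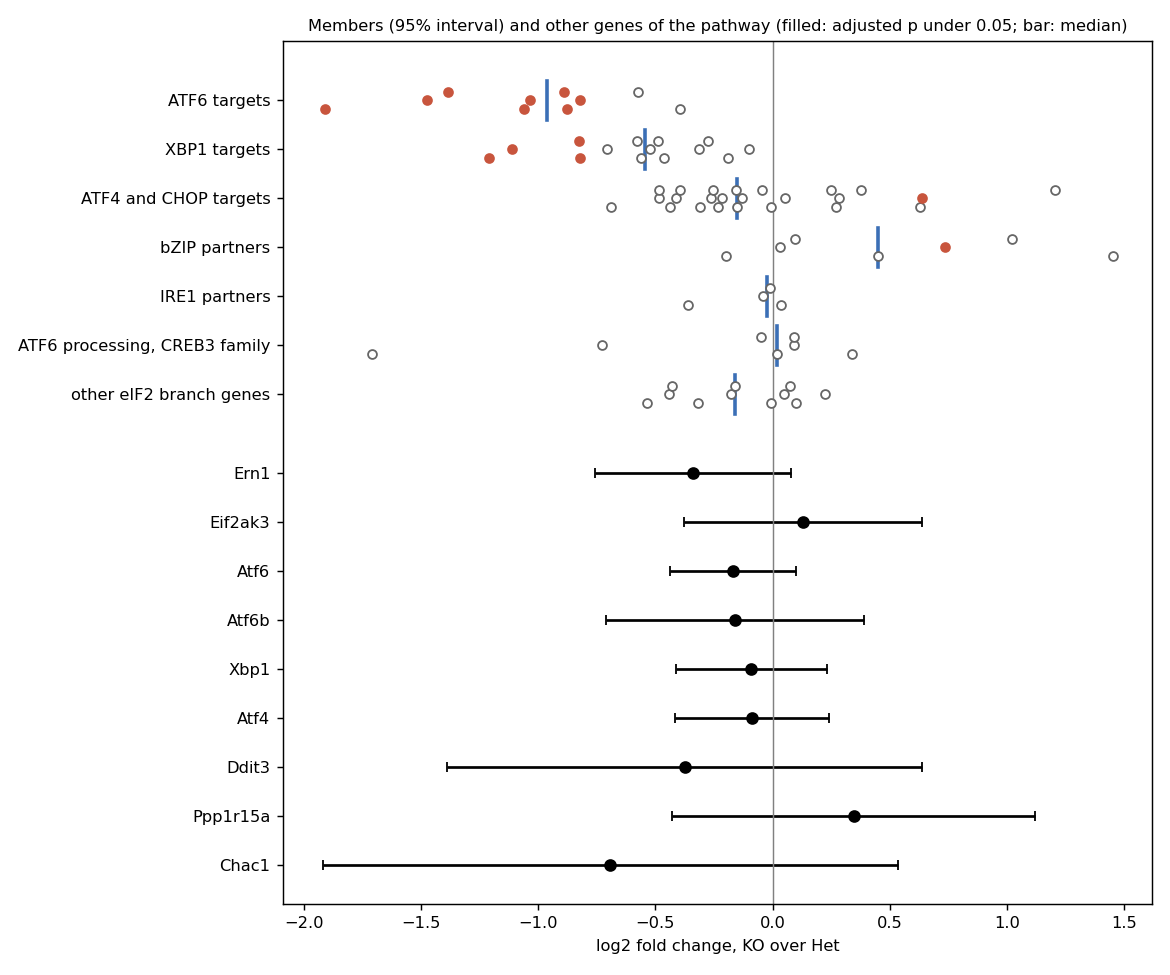
The lower rows show the log2 fold change, KO over Het, of the 9 tested members with 95% intervals, and the upper rows show the tested genes of 7 pathway lists, filled where the adjusted p was under 0.05, with the list median as a blue bar. All 9 intervals cover 0, while the ATF6 and XBP1 target lists lie wholly left of 0 with medians of −0.96 and −0.54.

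Set against Atf6 and Xbp1 within each library, the BiP transcript was lower in KO. The ratio of Hspa5 to Atf6 counts, which does not depend on how libraries are scaled, was 11.9, 14.6, 12.9 and 13.9 in Het and 7.63, 7.94, 9.33 and 8.94 in KO. All 4 KO libraries lay below all 4 Het libraries. The ratio of Hspa5 to Xbp1 was 14.6 ± 1.53 in Het and 9.05 ± 2.47 in KO (SD, n = 4 each) and did not overlap either, with KO replicate 24 the closest at 12.1 against 12.97 in Het replicate 6. The ratio of Hspa5 to Ern1 overlapped between the groups, at 39.3 to 51.6 in Het and 27.7 to 42.4 in KO. The level of Hspa5 alone already separated the groups, at 1721 to 2345 CPM in KO and 3277 to 4108 CPM in Het. Over the 8 libraries Atf6 ranged only 1.31-fold and Xbp1 1.46-fold. The ratios to these 2 genes thus largely restate the fall of Hspa5 and are no separate result about the regulators. Hspa5 itself had a log2 fold change of −0.82 (SE 0.15, edgeR adjusted p = 0.0401), a value below the lower bounds of the intervals of Atf4, Xbp1, Atf6, Atf6b, Ern1, Eif2ak3 and Ppp1r15a and inside those of Ddit3 and Chac1. The difference between Hspa5 and these genes was not tested. The call of Hspa5 was lost under 10 of 18 alternatives: with total counts as library sizes, with the acinar or the Y-linked covariate, and without any 1 library other than KO replicate 8 (highest adjusted p 0.131, edgeR). Over all 18 its log2 fold change lay between −0.92 and −0.69.

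**Figure D4:**
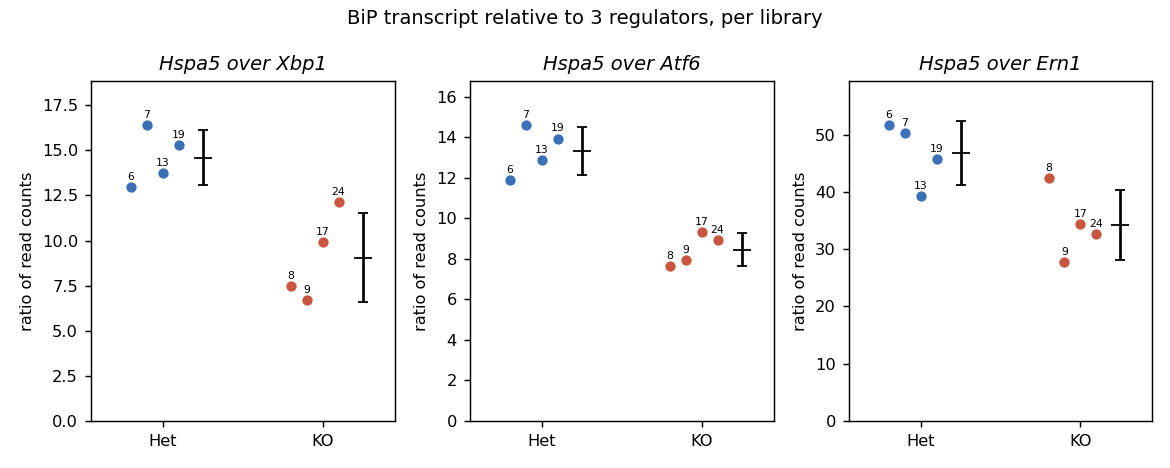
The ratio of Hspa5 read counts to those of Xbp1, Atf6 and Ern1 (from 0) is plotted for the 4 Het (blue) and 4 KO (red) libraries, numbered by replicate, with group mean and SD in black. Het and KO libraries are apart for Xbp1 and Atf6 and overlap for Ern1. The CPM of Hspa5 alone also separates the groups.

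The promoters of targets and regulators were searched for the same motifs. The endoplasmic reticulum stress element, written CCAAT, 9 bases of any kind and CCACG, and read by ATF6 and XBP1, was searched on both strands. It occurs in 39 of 32851 promoters (0.119%), in 8 of the 20 ATF6 and XBP1 targets with a promoter in the table, and in 0 of the 9 members with one. It is shown for 3 targets that fell, with the paired ends in capitals and the spacer in lower case.
Hspa5 (chr2:34772009-34772059, + strand): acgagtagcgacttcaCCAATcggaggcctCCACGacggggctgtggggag
Dnajc3 (chr14:118937811-118937861, + strand): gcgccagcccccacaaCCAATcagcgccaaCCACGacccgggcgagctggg
Pdia6 (chr12:17266475-17266525, + strand): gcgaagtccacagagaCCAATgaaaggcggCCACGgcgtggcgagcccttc
Of the 20 tested genes with this element, 6 fell in KO and 0 rose (median log2 fold change −0.42). Over all tested genes 0.680% were called lower. Those 6 genes, Creld2, Derl3, Dnajc3, Hsp90b1, Hspa5 and Pdia6, are all in the target lists. The lists name targets of the factors that read this element and were chosen with earlier results of these data known. Neither the share of targets with the element nor these 6 genes is therefore independent support. Calr and Syvn1, also in the lists, and the 12 genes in neither list, Canx and Alg12 among them, were not called. The absence of the endoplasmic reticulum stress element from the members' windows says nothing about more distant sites, and the promoter of Atf6 was not looked at.

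**Figure D5:**
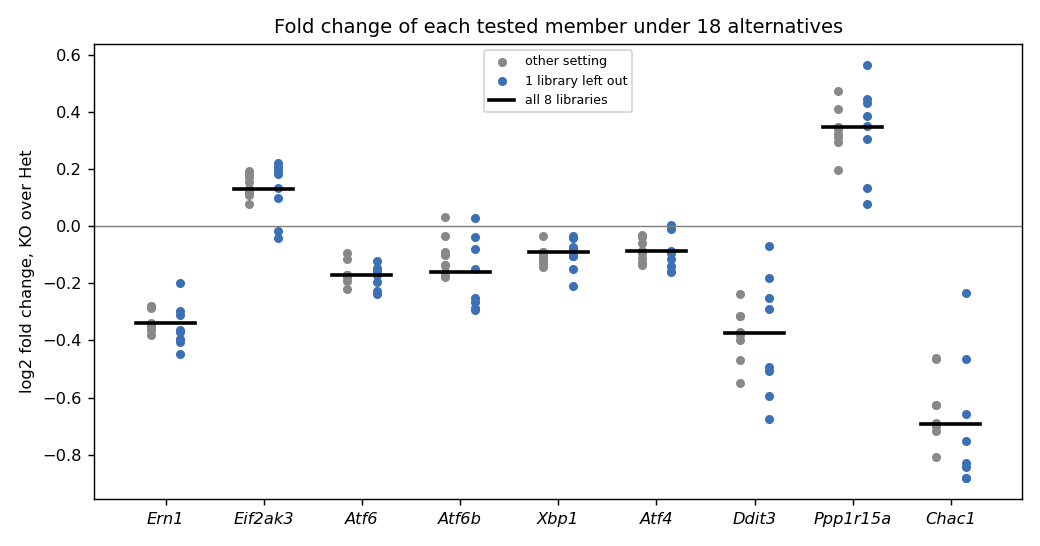
The log2 fold change, KO over Het, of the 9 tested members is plotted with all 8 libraries (black line), under 10 other settings (grey) and with 1 library left out (blue). Ddit3, Ppp1r15a and Chac1 spread most, and Eif2ak3, Atf6b and Atf4 cross 0 under at least 1 alternative.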

How the data were processed

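RNA from 8 libraries was compared, 4 KO and 4 Het, grouped by their labels, with the library numbers in the titles as replicate numbers. Per the labels' protocols, 2.315 ng of RNA was amplified with a NuGEN Ovation V2 kit. Sequencing was single-end with 100-base reads, about 30 M per library. The labels name no stranded step, and the counts were treated as unstranded. The deposited counts are whole reads per gene symbol, not normalized. TopHat2 2.1.0, Cufflinks 2.0.2, DESeq, bcl2fastq 1.8.4 and build mm9 were named, with no order, per the submitters' processing notes. Which tool counted reads, and on which annotation, is not given in the sources used here. One further table that the authors deposited gives mean signal per group (normalized counts), the fold ratio of these means, its log2, and p-values. It is quoted only by name.

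edgeR 4.0.16 (R 4.3.3) kept 14116 genes with filterByExpr (minimum count 10, total 15), scaled libraries by TMM and fitted KO over Het with no covariate (quasi-likelihood F test, two-sided). SE is the log2 fold change divided by the root of F, and 95% intervals are unadjusted. The common dispersion was 0.181, and 1 CPM stood for 9.86 to 16.2 counts. Amplified copies are counted as reads. No 2 libraries were alike (lowest chi-square per degree of freedom 18.2). Levels per length use the joint length of all exons of a gene in GENCODE M21. Promoters were matched by symbol to RefSeq (GRCm38.p6). As the build differs from that of the files, coordinates belong to the printed sequences only. Exact permutation tests of relations used log2(CPM + 0.1). Alternatives used DESeq2 1.42.0 and limma 3.58.1 among others.

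The members and lists were chosen with earlier results of these data known. The rule named all 10 members, Neurod1, up to 3 called genes with the smallest p per list (or the 1 with the smallest p), and the 3 genes most like the member with the smallest p. Other list members and Hspa5 are examples chosen after their values were seen.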

Additional observations from a re-analysis of the deposited data

Results flagged for a closer look

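Of the 20 groups of 4 libraries examined for the 10 genes, 1 held a library far from the rest, where chance gives about 1 in 20. Trib3 in Het replicate 13 stood at 0.618 CPM (7 counts), and the other 3 Het libraries lay between 0 and 0.101 CPM. The gap to the next library was 0.836 of the group's range, above Dixon's critical value for 4 samples.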

How the results depend on the processing

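No paired analysis was possible because KO and Het share no replicate number. Under all 18 alternatives 0 members were called lower and 0 higher. Of 162 recomputed log2 fold changes 157 kept their sign and 5 turned. Atf6b was 0.032 with the Y-linked covariate and 0.030 without Het replicate 19 (-0.29 to 0.030 with 1 library left out), Eif2ak3 was -0.043 without KO replicate 24 and -0.017 without Het replicate 6 (-0.043 to 0.22), and Atf4 was 0.0055 without Het replicate 7 (-0.16 to 0.0055). The cause was not tested. The lowest adjusted p of any member was 0.357, for Ern1 with the mesenchyme covariate. Over all genes 144 were called, against 520 with DESeq2, 500 when limma-voom used quality weights, 593 with the mesenchyme covariate, 76 with the acinar and 28 with the Y-linked covariate, and 29 to 285 with 1 library left out (285 without KO replicate 8). Pathway genes called lower numbered 12, or 16 by DESeq2, 17 under quality weights, 18 under the mesenchyme covariate, 3 under the Y-linked covariate and 4 to 15 with 1 library left out. The 2 called higher became 1 with no filter on low counts, 0 with the acinar or Y-linked covariate and 0 to 2 with 1 library left out. The median of all genes moved by at most 0.06. Few counts limit Trib3, Chac1 and Ddit3.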
